A study of Mus with 10 samples.

Results

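Adipocyte genes and adipokines were followed in skin of female BALB/c mice on 10 Affymetrix gene arrays. They are a list of 10 genes: Adipoq, Retn, Lep, Cfd, Plin1, Fabp4, Cidec, Adig, Pparg and Lpl. Where several probe sets carried a symbol and no other, the brightest on average over the 10 arrays stood for the gene. In this way 9 of the 10 genes were found among 22180 genes, and Cfd was not analysed here. Of these 9 genes, 8 had 1 probe set and Lpl had 2.

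The arrays fall into 3 groups: 4 of skin labelled PUVA 7D, 4 of skin labelled PUVA 3D and 2 of control skin. All mice were aged 7 to 8 weeks. PUVA is psoralen, a compound that crosslinks DNA when lit, followed by UVA light. Per the labels, the skin was treated with psoralen and then 0.25 J/cm2 UVA, 2 times in each of 2 weeks, and imiquimod, a drug that causes a psoriasis-like inflammation in mice, came after a gap of 7 or 3 days. The labels do not state whether the arrayed skin had received imiquimod, nor what the control mice were given, so the gap is used only as a group name. Beyond their titles, nothing says that the arrays of a group came from separate animals, so each p-value reflects no more than the variation among these arrays, part of which may be technical. The median log2 value of an array was 5.83 to 5.86. The 2 controls differed widely in genes of growing hair, with list means of 6.26 in control replicate 1 and 8.36 in control replicate 2.

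Mouse skin holds a layer of white fat cells below the dermis, which thickens and thins with the hair cycle. PPARγ, the receptor encoded by Pparg, is the main switch of fat cell formation and drives the genes of lipid storage. Mature fat cells store triglyceride in 1 large droplet, take up fatty acids through lipoprotein lipase, and secrete hormones called adipokines, among them adiponectin, leptin and, in mice, resistin.

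All 9 genes were well lit: their lowest value on any array was 6.09, above the median of every array. Of 23 other measured genes selective for fat cells, 0 lay below the lower quartile of values (4.17 to 4.23) on any array. That mark does not show detection, since 0 of 11 brown and beige fat genes lay below it on any array either. Keratinocyte genes, which check the tissue, had list means of 11.3 to 11.5 in PUVA 7D, 11.2 to 11.4 in PUVA 3D and 11.3 to 11.4 in control skin. Ucp1, which defines brown fat and is named here outside the rule for named genes, had values of 4.45 to 4.77 in PUVA 7D, 4.32 to 4.71 in PUVA 3D and 4.57 to 4.62 in control skin, close to the lower quartile. RNA was taken from whole skin, so fewer fat cells and less RNA per fat cell cannot be told apart.

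Retn and Pparg were lower on every PUVA 3D array than on all other arrays. Adig was lower in PUVA 3D than in control skin but overlapped with PUVA 7D. The other 6 genes overlapped between all groups. No gene of the 9 passed an adjusted p of 0.05 in limma in any of the 3 comparisons. The share of all genes past that threshold was 0.00902% (2 genes) for PUVA 7D against PUVA 3D, 0% for PUVA 7D against control and 0.00451% (1 gene) for PUVA 3D against control. At an unadjusted p under 0.05, 3 of 9 genes (Retn, Adig and Pparg) were higher and 0 lower in PUVA 7D than in PUVA 3D, against 5.33% of all genes higher and 4.43% lower. In PUVA 7D over control 0 of 9 were higher and 0 lower, against 3.21% and 2.68% of all genes. In PUVA 3D over control 0 of 9 were higher and 3 (Retn, Adig and Pparg) lower, against 5.67% and 4.07% of all genes. Any 2 of the 3 comparisons share the arrays of a group, so their counts are not independent.

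**Figure D1:**
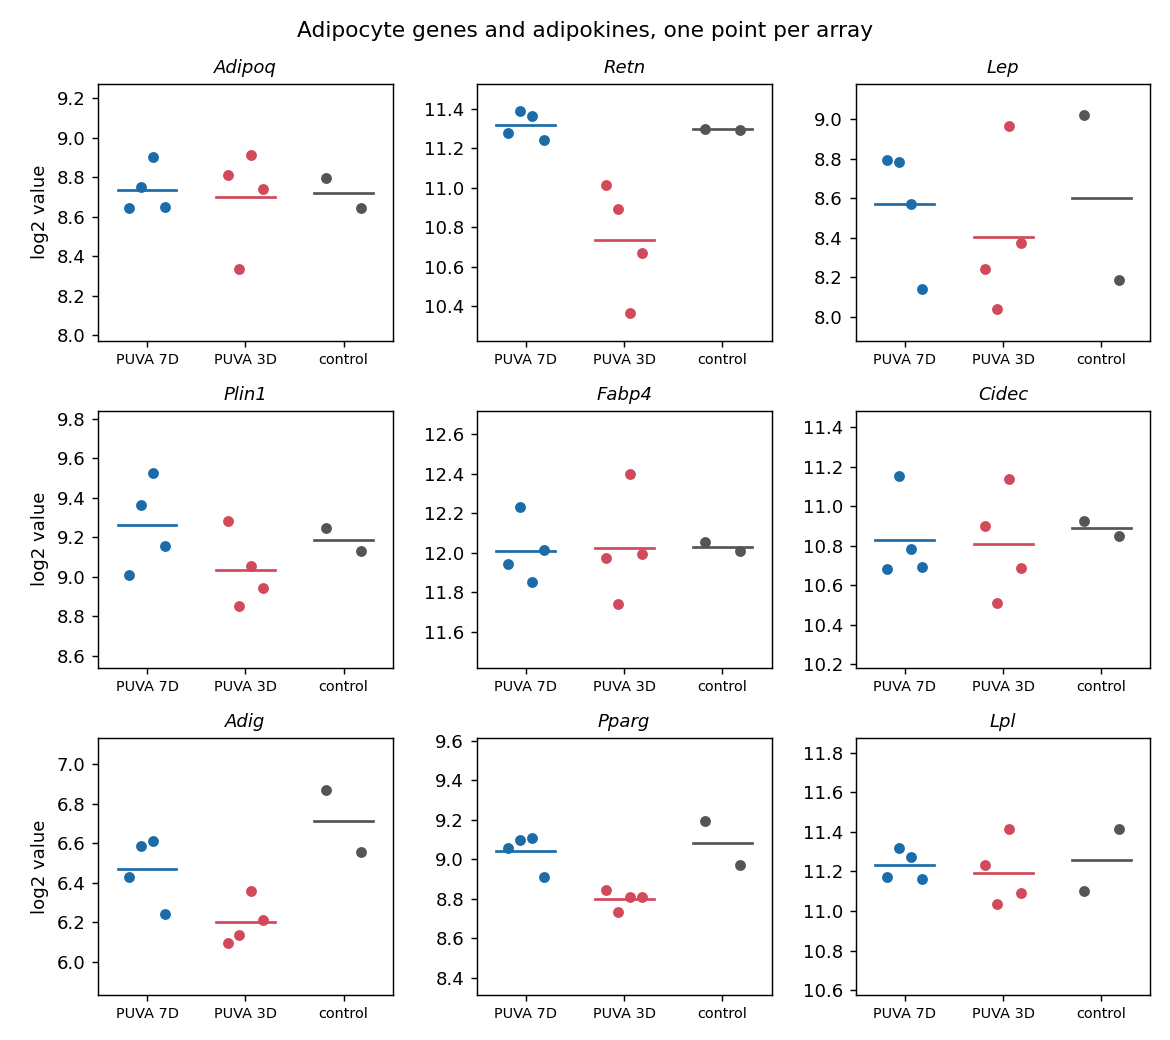
Log2 value (vertical axis, 1.3 log2 units high in each panel) of each gene on each array, with 1 point per array and a bar at the group mean, for PUVA 7D (n = 4), PUVA 3D (n = 4) and control (n = 2). The 4 PUVA 3D points of Retn (10.37 to 11.02) and of Pparg (8.73 to 8.84) lie below all 6 other points.

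Among the adipokines, Retn stood apart. It encodes resistin, a small secreted protein made by mouse fat cells and known for opposing insulin in mice. Retn had log2 values of 11.28, 11.39, 11.37 and 11.24 in PUVA 7D skin, 11.02, 10.90, 10.37 and 10.67 in PUVA 3D skin, and 11.30 and 11.29 in control skin. All 4 PUVA 3D arrays were below the 6 others, and PUVA 7D and control overlapped. The log2 difference of PUVA 7D over PUVA 3D was 0.58 ± 0.12 (SE), a linear ratio of 1.5, with an unadjusted p of 0.000705 and an adjusted p of 0.230 in limma. PUVA 3D over control gave -0.56 ± 0.15 (SE), a linear ratio of 0.678, with an adjusted p of 0.313. PUVA 7D over control gave 0.022 ± 0.15, with a 95% interval of -0.31 to 0.36. The spread within groups was uneven, with SDs of 0.070 in PUVA 7D, 0.29 in PUVA 3D and 0.0042 in control skin, which the fit pools.

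Adipoq encodes adiponectin, a fat cell hormone that raises insulin sensitivity. Its log2 values were 8.64, 8.75, 8.90 and 8.65 in PUVA 7D, 8.81, 8.33, 8.91 and 8.74 in PUVA 3D, and 8.80 and 8.64 in control skin. The 3 groups overlapped throughout, and PUVA 3D held both the highest and the lowest array. The 95% interval of the log2 difference was -0.23 to 0.30 for PUVA 7D over PUVA 3D and -0.35 to 0.31 for PUVA 3D over control. Lep encodes leptin, which signals the body's fat stores to the brain. It had 8.79, 8.78, 8.57 and 8.14 in PUVA 7D, 8.24, 8.04, 8.96 and 8.37 in PUVA 3D, and 9.02 and 8.18 in control skin. Lep varied most within groups, with SDs of 0.30, 0.40 and 0.59 in PUVA 7D, PUVA 3D and control skin, and the 2 controls spanned nearly its whole range of 0.99. Its intervals were accordingly wide, at -0.67 to 0.61 for PUVA 7D over control and -0.84 to 0.44 for PUVA 3D over control.

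The 2 lipid droplet genes overlapped between groups. Plin1 encodes perilipin 1, which coats the fat droplet and holds back its lipases. Its values were 9.01, 9.36, 9.53 and 9.15 in PUVA 7D, 8.85 to 9.28 in PUVA 3D, and 9.24 and 9.13 in control skin. The log2 difference of PUVA 7D over PUVA 3D was 0.23 ± 0.12 (SE), with an unadjusted p of 0.092 and an adjusted p of 0.574 in limma. Cidec encodes a protein that fuses droplets into larger ones. It ran from 10.68 to 11.15 in PUVA 7D, from 10.51 to 11.14 in PUVA 3D and from 10.85 to 10.92 in control skin. Its log2 differences were 0.019 ± 0.14 for PUVA 7D over PUVA 3D and -0.079 ± 0.18 for PUVA 3D over control (SE).

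Fatty acid uptake and transport showed group means close together. Fabp4, the fatty acid binding protein of fat cells, also made by macrophages and capillary endothelium, averaged 12.01 ± 0.16 in PUVA 7D (SD, n = 4), 12.03 ± 0.27 in PUVA 3D (SD, n = 4) and 12.03 ± 0.033 in control skin (SD, n = 2). The log2 difference was -0.015 for PUVA 7D over PUVA 3D, with a 95% interval of -0.31 to 0.28. Lpl encodes lipoprotein lipase, which frees fatty acids from circulating triglyceride and is also made in muscle and macrophages. It averaged 11.23 ± 0.077 in PUVA 7D (SD, n = 4), 11.19 ± 0.17 in PUVA 3D (SD, n = 4) and 11.26 ± 0.22 in control skin (SD, n = 2). The dimmer of its 2 probe sets had group means of 7.16, 7.18 and 7.14 in the same order. The probe sets differed in sign for each comparison, with differences of 0.038 and -0.026 for PUVA 7D over PUVA 3D, all within the spread of the arrays.

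Both genes of fat cell formation lay low in PUVA 3D skin. Pparg had log2 values of 9.06, 9.09, 9.11 and 8.91 in PUVA 7D, 8.84, 8.73, 8.81 and 8.81 in PUVA 3D, and 9.19 and 8.97 in control skin. No PUVA 3D array reached any array of the other groups. Pparg was 0.24 ± 0.074 (SE) higher in PUVA 7D than in PUVA 3D, with an unadjusted p of 0.00762 and an adjusted p of 0.359 in limma. Against control, PUVA 3D gave -0.28 ± 0.091 (SE), with an unadjusted p of 0.0101 and an adjusted p of 0.385. Without control replicate 1 that difference was -0.17, with an unadjusted p of 0.146. Adig encodes adipogenin, a small membrane protein made as fat cells form. It had 6.43, 6.59, 6.61 and 6.24 in PUVA 7D, 6.09, 6.14, 6.36 and 6.21 in PUVA 3D, and 6.87 and 6.55 in control skin. PUVA 3D lay below both controls and overlapped with PUVA 7D through PUVA 7D replicate 4. The log2 difference of Adig was 0.27 ± 0.11 (SE) for PUVA 7D over PUVA 3D, with an adjusted p of 0.471. For PUVA 3D over control it was -0.51 ± 0.13 (SE), a linear ratio of 0.701, with an adjusted p of 0.296.

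**Figure D2:**
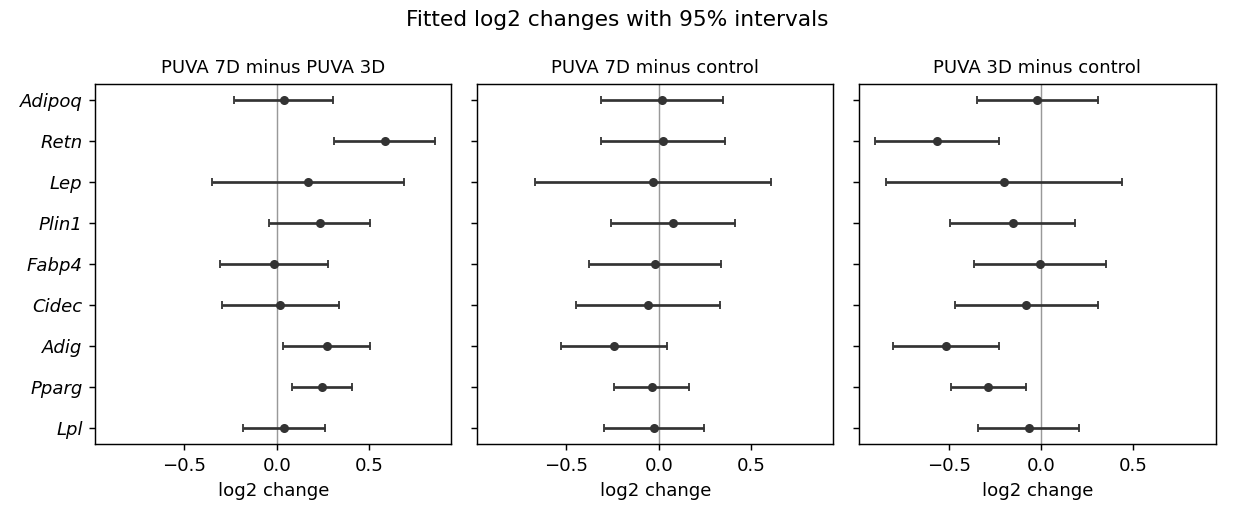
Fitted log2 change (horizontal axis) of each gene in PUVA 7D minus PUVA 3D, PUVA 7D minus control and PUVA 3D minus control, with points at the estimate and bars for the 95% interval of the limma fit. Intervals of Retn, Adig and Pparg exclude 0 in the first and last panel before adjustment, and none of the 9 does in PUVA 7D minus control.

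Overlap between groups was read from the same array values as the fits, so it adds no independent support. In PUVA 7D against PUVA 3D, 2 of 9 genes (Retn and Pparg) did not overlap and were higher, where 2.95% of all genes did so. In PUVA 3D against control, 3 of 9 (Retn, Adig and Pparg) did not overlap and were lower, where 7.89% of all genes did so with only 2 controls. In PUVA 7D against control 0 of 9 did so in either direction, against 8.56% of all genes higher and 5.85% lower. The median log2 change of the 9 genes was 0.17 for PUVA 7D over PUVA 3D, -0.027 for PUVA 7D over control and -0.15 for PUVA 3D over control. Over all genes it was 0.0095, 0.015 and 0.0023. For PUVA 7D over PUVA 3D 8 of 9 estimates were above 0, against 53.2% over all genes. For PUVA 7D over control 6 of 9 were below 0, against 45% over all genes. In PUVA 3D over control 9 of 9 were below 0, against 49.4% over all genes, although 4 of them (Adipoq, Fabp4, Cidec and Lpl) lay within 0.1 of 0. These 4 and Lep turned sign in some fits that left out 1 array. Genes other than Retn varied together over the arrays, so these counts do not rest on independent readings. Leaving out 1 array at a time gave medians of 0.045 to 0.27 for PUVA 7D over PUVA 3D and -0.21 to -0.076 for PUVA 3D over control. The values nearest 0 in both came without PUVA 3D replicate 2.

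Single arrays stood out across several genes at once. PUVA 3D replicate 2 was the lowest of the 10 arrays for 7 of 9 genes: Adipoq, Lep, Plin1, Fabp4, Cidec, Pparg and Lpl. It was not the lowest for Retn or Adig. PUVA 3D replicate 3 was the highest array for Adipoq and Fabp4, and at the same time the lowest for Retn. Over the 9 genes, the mean log2 value ran from 9.58 to 9.85 in PUVA 7D, from 9.36 to 9.71 in PUVA 3D and from 9.67 to 9.83 in control skin, so the groups overlapped in the mean of the 9 genes.

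**Figure D3:**
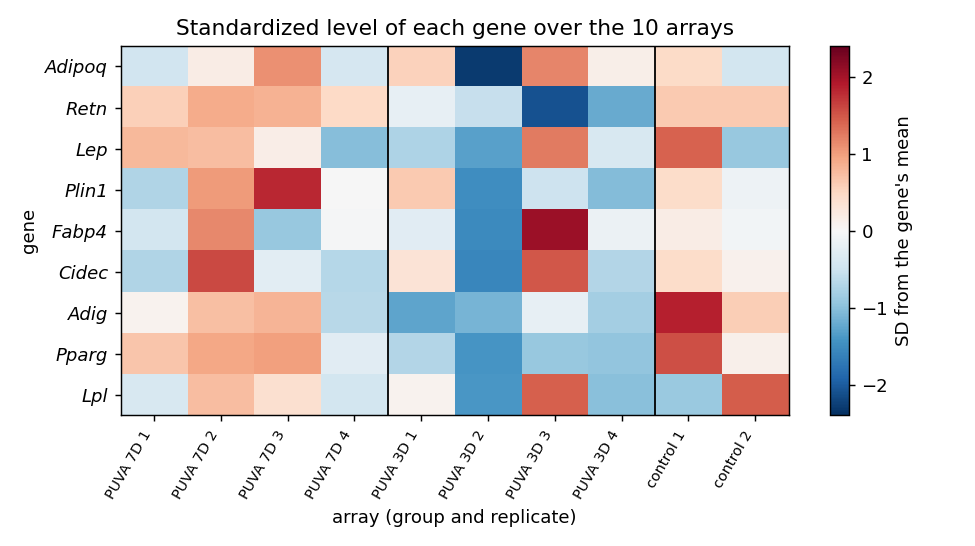
Level of each gene (rows) on each array (columns: PUVA 7D, PUVA 3D, control), as SDs from that gene's mean over the 10 arrays, with red above and blue below the mean. PUVA 3D replicate 2 is blue in every row, and PUVA 3D replicate 3 combines the lowest Retn value with the highest Adipoq and Fabp4 values.

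By Pearson's r, Retn varied less closely with the other genes than these did with each other. Over the 10 arrays, Pearson's r was above 0 for all 28 pairs without Retn, with a median of 0.52, and highest for Adig and Pparg (0.90) and for Fabp4 and Cidec (0.88). The 8 pairs with Retn had a median r of -0.021. They ranged from -0.35 with Fabp4 to 0.77 with Pparg. By rank (Spearman's rho), every gene lay above 0 with Retn, from 0.030 for Adipoq to 0.89 for Pparg. PUVA 3D replicate 3 joined the lowest Retn value, -2.09 SDs from its mean, to the highest Fabp4 value, at 2.04. With group means removed the medians of Pearson's r were 0.56 without Retn and -0.33 with it, and the r of Retn with Pparg was 0.11. These correlations describe arrays that share labelling and groups, over few points.

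**Figure D4:**
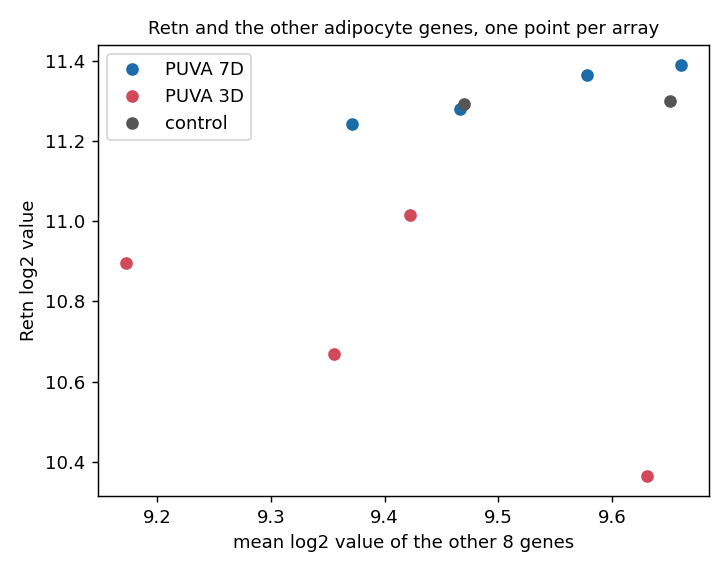
Retn log2 value (vertical axis) against the mean log2 value of the other 8 genes (horizontal axis), 1 point per array, coloured by group. On the horizontal axis the points span 9.17 to 9.63 for PUVA 3D and 9.37 to 9.66 for PUVA 7D. PUVA 3D replicates 2 and 4 (9.17 and 9.36) lie to the left of every PUVA 7D point. On the vertical axis the PUVA 3D points lie at 10.37 to 11.02 and the PUVA 7D points at 11.24 to 11.39.

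The genes whose profile was most like the mean of the 9 standardized genes were Tanc1, Prom2, Ppp1r13b, Cdh1, Ttc36, Fam234a, Sntb1 and Ank, with Pearson's r of 0.95 to 0.98 over the 10 arrays. Cdh1 encodes E-cadherin, which joins epithelial cells. Its values were 11.14 to 11.31 in PUVA 7D, 10.95 to 11.24 in PUVA 3D and 11.21 to 11.26 in control skin, with PUVA 3D replicate 2 lowest here as well. No fat-selective gene from the lists was among these 8.

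Adipokine receptors and other secreted factors were read next. Of 8 receptors, 0 passed an adjusted p of 0.05 in any comparison in limma. In each comparison 1 was lower and 0 higher at unadjusted p under 0.05, against 2.68% to 4.43% and 3.21% to 5.67% of all genes. Lepr, the leptin receptor, was the one lower in both comparisons with control. It had 7.35, 7.32, 7.42 and 7.44 in PUVA 7D, 7.43, 7.25, 7.39 and 7.41 in PUVA 3D, and 7.77 and 8.05 in control skin. Both PUVA groups lay below both controls, and they overlapped with each other. The log2 change over control was -0.53 ± 0.096 (SE) in PUVA 7D, with an adjusted p of 0.653, and -0.54 ± 0.096 in PUVA 3D, with an adjusted p of 0.117. Without control replicate 1, which leaves 1 control, the changes were -0.66 and -0.68. Without control replicate 2, the array with the highest growing hair signal, they were -0.39 and -0.40. The part of hair genes in the Lepr difference was not tested.

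Of 17 other secreted factors of fat, 0 passed the adjusted threshold in any comparison. With no adjustment, 1 was past a p of 0.05 and higher and 1 lower in PUVA 7D over PUVA 3D. In PUVA 7D over control 3 were higher and 0 lower, and in PUVA 3D over control 3 were higher and 2 lower. Shares of all genes, higher and lower, were 5.33% and 4.43%, 3.21% and 2.68%, and 5.67% and 4.07% in the same order. Relatives of resistin were among the 17 factors. Retnlg, known in mice from neutrophils and bone marrow, had 4.45 to 4.92 in PUVA 7D, 4.83 to 5.51 in PUVA 3D and 3.96 to 4.59 in control skin. Its log2 change in PUVA 3D over control was 0.90 ± 0.21 (SE), with an adjusted p of 0.250, at values close to the lower quartile of the arrays. Retnla, made by alternatively activated macrophages in mice, gave 0.46 ± 0.25 (SE) in PUVA 7D over PUVA 3D, with an adjusted p of 0.576, and 0.76 ± 0.31 in PUVA 7D over control, with an adjusted p of 0.815. Serpina12, which encodes the adipokine vaspin, gave 0.36 ± 0.12 (SE) in PUVA 7D over PUVA 3D, with an adjusted p of 0.428. Sfrp5, an inhibitor of Wnt signals secreted by fat, had 6.57 to 7.22 in PUVA 7D and 6.99 to 7.55 in PUVA 3D, against 6.45 to 6.52 in control skin.

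Of 18 transcription factors of fat cell formation 0 passed the adjusted threshold in any comparison. Past an unadjusted p of 0.05, 2 were higher and 1 lower in PUVA 7D over PUVA 3D, 2 higher and 0 lower in PUVA 7D over control, and 4 higher and 1 lower in PUVA 3D over control. Over all genes the shares were 5.33% and 4.43%, 3.21% and 2.68%, and 5.67% and 4.07% in the same order. Estimates above and below 0 numbered 9 and 9, 13 and 5, and 11 and 7. Cebpd, which acts early in fat cell formation and is also induced in inflammation, had 6.87 to 7.20 in PUVA 7D, 7.39 to 7.94 in PUVA 3D, and 7.42 and 6.97 in control skin. The log2 difference of PUVA 7D over PUVA 3D was -0.61 ± 0.14 (SE), with an adjusted p of 0.243. Klf15, a later factor that raises Slc2a4, gave 0.39 ± 0.11 (SE) in PUVA 7D over PUVA 3D, with an adjusted p of 0.346. Ebf2, a factor of fat cell progenitors, had 7.56 to 8.13 in PUVA 7D and 7.91 to 8.45 in PUVA 3D, above the 7.49 and 7.38 of control skin. Its log2 change in PUVA 3D over control was 0.73 ± 0.17 (SE), with an adjusted p of 0.260.

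Lipid synthesis genes lay mostly lower in both PUVA groups than in control, 2 comparisons that share the controls. Of 9 triglyceride synthesis genes 0 passed the adjusted threshold in any comparison, with a median log2 change of -0.16 in PUVA 7D (0 above 0, 9 below) and -0.21 in PUVA 3D (1 above, 8 below) over control. With no adjustment 2 were past a p of 0.05 and higher and 1 lower in PUVA 7D over PUVA 3D, against 5.33% and 4.43% of all genes. Over control 1 was lower in PUVA 7D and 3 in PUVA 3D, against 2.68% and 4.07% of all genes. Agpat2, an acyltransferase of triglyceride synthesis whose loss removes fat tissue in mice, had 9.56, 9.60, 9.68 and 9.59 in PUVA 7D, 9.49, 9.34, 9.17 and 9.20 in PUVA 3D, and 9.91 and 10.10 in control skin. The 3 groups did not overlap, with PUVA 3D lowest and control highest. The log2 change in PUVA 3D over control was -0.71 ± 0.10 (SE), with an adjusted p of 0.0860 in limma. It passed in no setting that kept both controls. With 1 control left, it was -0.80 without control replicate 1 and -0.62 without control replicate 2. PUVA 7D over control gave -0.40 ± 0.10 (adjusted p = 0.748) and PUVA 7D over PUVA 3D 0.31 ± 0.084 (adjusted p = 0.311). Of 11 fatty acid synthesis genes 0 passed, with medians of -0.13 in PUVA 7D and -0.24 in PUVA 3D over control. Estimates below 0 numbered 11 and 10. Over all genes 45% and 49.4% of estimates lay below 0 in the same order, with medians of 0.015 and 0.0023. With no adjustment 3 of the 11 were past a p of 0.05 and lower in PUVA 3D over control, against 4.07% of all genes. In PUVA 7D over control 0 were past it. In PUVA 7D over PUVA 3D 1 was higher, against 5.33% of all genes. Thrsp, a nuclear protein that raises fatty acid synthesis, gave -0.67 ± 0.25 (SE) in PUVA 3D over control, with an adjusted p of 0.457, and the elongase Elovl6 gave -0.42 ± 0.15, with an adjusted p of 0.438. Many of these genes are also active in sebaceous glands.

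**Figure D5:**
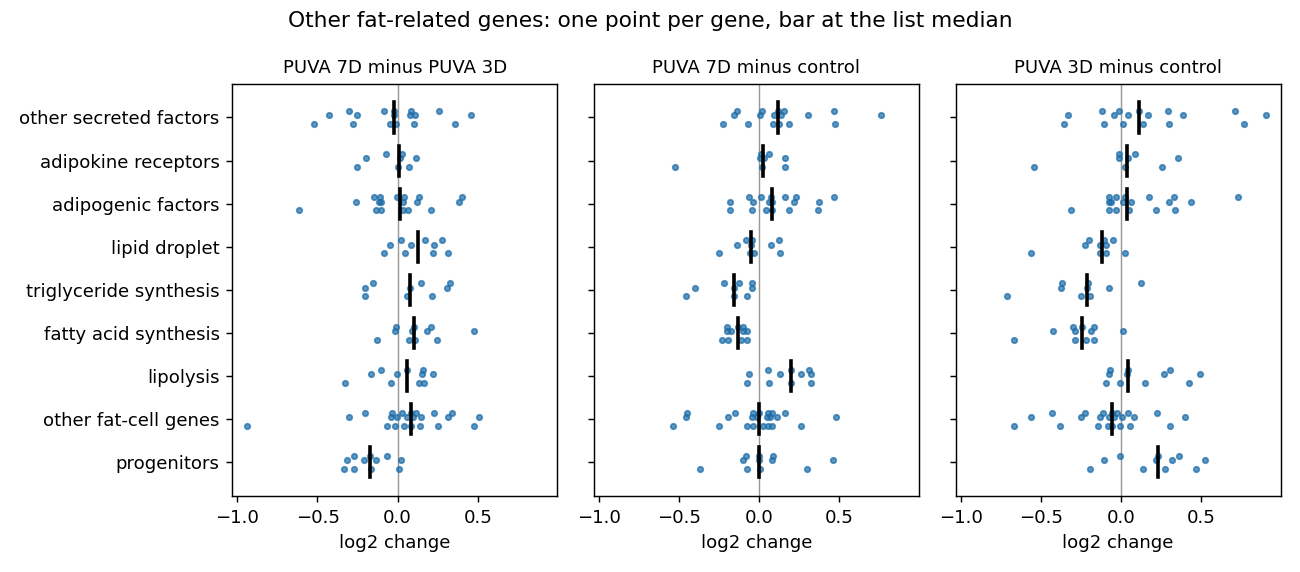
Log2 change (horizontal axis) of each measured gene in 9 lists of fat-related genes (rows), for PUVA 7D minus PUVA 3D, PUVA 7D minus control and PUVA 3D minus control, with 1 point per gene and a bar at the list median. Points of fatty acid synthesis lie below 0 for 11 of 11 genes in PUVA 7D minus control and for 10 of 11 in PUVA 3D minus control. Over all genes 45% and 49.4% lie below 0 in the same order.

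Of 10 other droplet genes 0 passed the adjusted threshold in any comparison. Their median log2 change was 0.13 for PUVA 7D over PUVA 3D (8 above 0, 2 below), -0.050 for PUVA 7D over control (3 above, 7 below) and -0.12 for PUVA 3D over control (1 above, 9 below). Between PUVA 7D and PUVA 3D 2 were higher in PUVA 7D at an unadjusted p under 0.05, against 5.33% of all genes. In both comparisons with control 0 were past it. The 2 were G0s2, an inhibitor of the lipase ATGL, at 0.22 ± 0.068 (SE) with an adjusted p of 0.373, and Plin5, a perilipin of oxidative tissues, at 0.28 ± 0.090 with an adjusted p of 0.395. Of 11 lipolysis genes 0 passed, with medians of 0.061 for PUVA 7D over PUVA 3D (6 above 0, 5 below), 0.20 for PUVA 7D over control (9 above, 2 below) and 0.047 for PUVA 3D over control (7 above, 4 below). Among them 1 (G0s2 again) was past an unadjusted p of 0.05 and higher in PUVA 7D over PUVA 3D, against 5.33% of all genes. In PUVA 3D over control Hcar1, the lactate receptor that restrains lipolysis in fat cells, gave 0.49 ± 0.16 (SE), with an adjusted p of 0.399. Of the 23 other fat-selective genes 0 passed. With no adjustment, 2 were past a p of 0.05 and higher and 1 lower in PUVA 7D over PUVA 3D, 1 higher and 0 lower in PUVA 7D over control, and 0 higher and 2 lower in PUVA 3D over control. The shares of all genes were 5.33% and 4.43%, 3.21% and 2.68%, and 5.67% and 4.07% in the same order. Pnpla3, a lipase induced by feeding, was higher in PUVA 7D than in PUVA 3D without overlap. It was the 1 gene of the 23 to be so, against 2.95% of all genes. Its log2 difference was 0.51 ± 0.14 (SE), with an adjusted p of 0.323 in limma. Estimates of the 23 genes in PUVA 7D over PUVA 3D were above 0 for 15 and below 0 for 8, the lowest at -0.94.

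Genes of other cell types also differed between the groups. Macrophage genes (11 measured) had list means of 8.91 to 9.38 in PUVA 7D, 9.04 to 9.98 in PUVA 3D and 8.87 to 9.03 in control skin. The highest macrophage mean, 9.98, was that of PUVA 3D replicate 2, the array lowest for 7 of the 9 fat genes. Fibroblast and matrix genes (8 measured) had means of 10.18 to 10.56 in PUVA 7D, 10.64 to 11.25 in PUVA 3D and 10.10 to 10.60 in control skin. Sebocyte genes (8 measured) had means of 10.09 to 10.22 in PUVA 7D, 8.97 to 10.47 in PUVA 3D and 10.16 to 10.56 in control skin. Awat2, a sebaceous wax synthase, separated PUVA 3D from the other groups, at 8.999 to 9.47 in PUVA 7D, 6.90 to 8.37 in PUVA 3D and 9.06 to 10.01 in control skin. It was the only 1 of the 8 sebocyte genes to do so. Estimates for the 8 were above 0 for 1 and below 0 for 7 in PUVA 3D over control. In PUVA 7D over PUVA 3D they were above 0 for 7 and below 0 for 1. Pparg is also active in sebocytes, and their part in its difference was not tested. Muscle genes (15 measured) had means of 11.13 to 11.33 in PUVA 7D, 10.86 to 11.37 in PUVA 3D and 11.09 to 11.32 in control skin, and endothelial genes (8 measured) 8.08 to 8.18, 8.09 to 8.20 and 7.91 to 7.99 in the same order. In growing hair genes (10 measured) the means were 5.16 to 5.36 in PUVA 7D and 5.07 to 5.55 in PUVA 3D, against 6.26 and 8.36 in control skin. The 2 PUVA groups overlapped there, and 4 of the 10 genes lay below the lower quartile on some of the arrays. Of 8 mammary epithelial genes 3, the milk protein genes Csn2, Csn3 and Lalba (named after their values were seen), lay below the lower quartile on all 10 arrays. None of these lists had a gene past the adjusted threshold. At an unadjusted p under 0.05, 3 of 11 macrophage and 6 of 8 fibroblast genes were lower in PUVA 7D than in PUVA 3D. So were 1 of 8 endothelial, 1 of 8 mammary and 0 of 10 growing hair genes, against 4.43% of all genes. Higher were 3 of 15 muscle, 1 of 7 keratinocyte and 1 of 8 sebocyte genes, against 5.33% of all genes. Muscle estimates were above 0 for 13 genes and below 0 for 2. In PUVA 3D over control 5 of 11 macrophage, 6 of 8 fibroblast and 2 of 8 endothelial genes were higher by this measure. The same held for 1 of 8 mammary genes and 5.67% of all genes. Lower were 9 of 10 growing hair, 2 of 8 mammary, 1 of 15 muscle and 1 of 8 sebocyte genes, against 4.07% of all genes. Here 12 muscle estimates were below 0 and 3 above. In PUVA 7D over control 1 of 8 endothelial and 1 of 8 mammary genes were higher, against 3.21% of all genes. Among growing hair genes 8 of 10 were lower, as was 1 of 8 mammary genes, against 2.68% of all genes. No macrophage, fibroblast, muscle, sebocyte or keratinocyte gene was past this measure there. The part of these cell types in the differences of Retn, Adig and Pparg was not tested.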

How the data were processed

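RNA of mouse skin was labelled with the Affymetrix WT PLUS kit after miRNeasy extraction, per the labels' protocols. The authors deposited log2 values for 41345 probe sets. Their base was inferred from the range, and for summarisation and normalization the method is not given in the sources used here. No batch or scan date was given. Gene names came from the annotation of the platform: 23521 had 1 symbol, 1814 several and 16010 none listed. Of 233 listed symbols 215 were measured.

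The 3 group means were estimated together from the 10 arrays by limma 3.58.1 under R 4.3.3 (two-sided moderated tests by lmFit and eBayes, 7 residual and 3.514 prior degrees of freedom), with Benjamini-Hochberg adjustment over 22180 genes at 0.05. Each log2 change carries its standard error (SE). The number of arrays, above all 2 controls, limits the precision. Scripts were tested on simulated data. Replicates are numbered in sample order. Besides the 9 genes, the text names up to 2 genes of a list per comparison with the smallest p, and the 8 most alike. The genes and lists were chosen with earlier results of these data known. The alternatives were quantile normalization, centring, a filter on the lowest 30% of genes, the mean of all probe sets, trend and robust eBayes, array weights, only the groups compared, and leaving out each array.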

Additional observations from a re-analysis of the deposited data

Results flagged for a closer look

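Within the groups of 4 arrays, 1 array stood far from the other 3 in the mean of 3 gene lists. The adipokine receptor mean of PUVA 7D replicate 3 was 8.692, against 8.631 to 8.637 in the other PUVA 7D arrays. The mean of lipid uptake genes in PUVA 7D replicate 2 was 9.166, against 9.074 to 9.084. The mean of fat cell progenitor genes in the same array was 8.934, against 9.08 to 9.10. None of the 9 adipocyte genes had such an array in either PUVA group. Chance alone gives such a gap in about 1 of 20 groups, and 60 groups were examined.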

How the results depend on the processing

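None of the 9 genes passed an adjusted p of 0.05 under any of the 17 alternatives. The lowest value was 0.0829, for Retn in PUVA 7D over PUVA 3D without PUVA 3D replicate 1. Retn, Adig and Pparg kept their direction in PUVA 7D over PUVA 3D and in PUVA 3D over control throughout. Over all leave-one-out fits their unadjusted p in PUVA 7D over PUVA 3D reached at most 0.00271, 0.0816 and 0.0229. Quantile normalization turned Fabp4 to 0.0021 in PUVA 3D over control. Centring on array medians turned Fabp4 to 0.0076 in PUVA 7D over control and 0.013 in PUVA 7D over PUVA 3D, and Lpl to 0.00057 in PUVA 7D over control. Genes past the threshold numbered 3 with array weights and 2 with centring in PUVA 3D over control. In PUVA 7D over PUVA 3D they numbered 6 with array weights, 4 with centring, 1 with only the groups compared and 1 without the lowest 30% of genes.

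Leaving out 1 array gave 1 to 182 genes past the threshold in PUVA 3D over control, 0 to 217 in PUVA 7D over control and 0 to 10 in PUVA 7D over PUVA 3D. Both largest counts came without control replicate 1, a fit in which the lone control is taken to have the spread of the PUVA groups. The adipocyte genes past an unadjusted p of 0.05 numbered 2 to 3, 0 to 1 and 2 to 4 in the same order. Small changes turned sign in these fits. In PUVA 7D over PUVA 3D the log2 change ran from -0.086 to 0.11 for Adipoq, -0.090 to 0.13 for Cidec, -0.11 to 0.11 for Fabp4, -0.014 to 0.11 for Lpl and -0.025 to 0.037 for Lepr. In PUVA 7D over control it ran from -0.060 to 0.093 for Adipoq, -0.095 to 0.032 for Fabp4, -0.45 to 0.39 for Lep, -0.18 to 0.13 for Lpl, -0.011 to 0.16 for Plin1, -0.15 to 0.071 for Pparg, -0.0012 to 0.048 for Retn, -0.77 to 0.18 for Awat2 and -0.40 to 0.043 for Cebpd. In PUVA 3D over control it ran from -0.096 to 0.10 for Adipoq, -0.19 to 0.020 for Cidec, -0.13 to 0.089 for Fabp4, -0.62 to 0.22 for Lep and -0.22 to 0.091 for Lpl. The causes were not tested. No paired analysis was possible because replicates are numbered by sample order alone, which ties no array of a group to one of another. Detection calls were not analysed here.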

Other observations

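The mean of 11 genes of fat cell progenitors ran from 8.93 to 9.10 in PUVA 7D, 9.21 to 9.24 in PUVA 3D and 9.003 to 9.04 in control skin, so PUVA 3D did not overlap with either. Of the 11, 0 passed an adjusted p of 0.05 in any comparison in limma. At an unadjusted p under 0.05, 0 were higher and 2 lower in PUVA 7D over PUVA 3D, where 4.43% of all genes were lower. In PUVA 3D over control 2 were higher and 0 lower, where 5.67% of all genes were higher. Estimates were above 0 for 2 and below 0 for 9 of the 11 in PUVA 7D over PUVA 3D, and above 0 for 8 and below 0 for 3 in PUVA 3D over control. Dlk1 encodes the preadipocyte factor that holds back fat cell formation. It gave 0.47 ± 0.13 (SE) in PUVA 3D over control, with an adjusted p of 0.319 in limma. Its values, 5.08 to 5.78, lay below the median of every array. Cd34, a surface marker of progenitors also found on endothelium and hair follicle stem cells, gave -0.31 ± 0.13 (SE) in PUVA 7D over PUVA 3D, with an adjusted p of 0.474. The mean of the 8 fibroblast genes was also above that of the other groups on every PUVA 3D array.

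Of 11 brown and beige fat genes 0 passed the adjusted threshold in any comparison. In PUVA 7D over PUVA 3D 3 were higher and 0 lower at an unadjusted p under 0.05, against 5.33% and 4.43% of all genes. Estimates there were above 0 for 8 and below 0 for 3 of the 11, the lowest at -0.73. Dio2, the deiodinase that activates thyroid hormone in brown fat and other tissues, gave 0.44 ± 0.15 (SE) with an adjusted p of 0.421. Ppara, a receptor that drives fatty acid oxidation, gave 0.21 ± 0.071 (SE) with an adjusted p of 0.424. Of 11 lipid uptake genes 1 was past an unadjusted p of 0.05, higher in PUVA 3D over control, where 5.67% of all genes were. Of 8 genes of insulin signalling and glucose uptake 0 were past it in any comparison.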
